A study of Saccharomyces cerevisiae with 4 samples.

Results

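Celastrol, a plant triterpenoid whose quinone methide group reacts with protein thiols, was given to cultures of the budding yeast Saccharomyces cerevisiae, and the response of the whole genome was read on microarrays. The question was whether the compound engages oxidant defence and heat shock genes together. The comparison rests on 2 of the 4 arrays of the study, on which total RNA from a 1 h exposure to 10 µM celastrol was set against total RNA from the same time in the solvent DMSO. On each of them the RNA of treated cells carried the red dye Cy5 and that of its own DMSO control the green dye Cy3, so a dye effect of a probe cannot be told apart from the treatment. The other 2 arrays, cells at 39 °C for 30 min against cells at 30 °C, entered to share an estimate of the spread and, where said, for a contrast of celastrol minus heat. The sources used here do not name the strain, its genotype, the medium or the growth phase. They state that the experiments were run separately, without saying whether each array had a culture of its own, so p-values measure the spread between arrays, part of which may be technical.

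All probes with exactly 1 annotated gene were used and averaged per gene, which gave values on both celastrol arrays for 5472 of 5477 genes. The test covered the 5403 genes measured on all 4 arrays. Each value is a log2 ratio of celastrol over DMSO, so 1 stands for a 2-fold higher and −1 for a 2-fold lower signal. The base of the logarithm could be read from the values of a heat shock array alone and was assumed to be the same here, and every fold given below rests on that. Errors are the SD over the 2 celastrol arrays (n = 2), and a gene is called higher or lower, or said to have risen or fallen, at an adjusted p under 0.05 in limma over all 5403 genes. The p-values use a spread shared with the heat shock arrays. A wide gap between those can thus raise the p of a gene on which the celastrol arrays agree, or keep it from a call.

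Yeast meets reactive compounds with a small set of transcription factors. Yap1 senses oxidants and thiol-reactive compounds and drives genes for reductases and thiol defence, Pdr1 and Pdr3 drive membrane pumps that export drugs, and Hsf1 drives chaperones when proteins misfold. Rpn4, itself a short-lived substrate of the proteasome, drives the proteasome genes, and Msn2 and Msn4 drive a general stress programme while genes for ribosomes are turned down.

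The test called 353 genes, of which 208 were higher, 3.85% of those tested, and 145 lower, 2.68%. Counts of called genes in the lists below are to be read against these shares, and several lie close to them. The higher genes reached further. Among them 45 rose at least 4-fold, 18 at least 8-fold and 10 at least 16-fold, whereas 15 lower genes fell at least 4-fold and 1 at least 8-fold. The 10 highest were the oxidoreductase-like genes FRM2, YNL134C, GRE2, OSI1 and YML131W, the secreted stress protein YGP1, the drug resistance gene CIS1, the chaperone SSA4, the reductase OYE3 and the glutathione transferase ECM4. The lowest 10 were the zinc transporter ZRT1, the small ribonucleoprotein SNU13, the serine deaminase CHA1, the ribosomal protein RPL43A, the histone HTA2, the acid phosphatases PHO3 and PHO11, the mitochondrial enzyme ETR1, the carnitine acetyltransferase YAT1 and the repressor TOD6.

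The replicates correlated over the 5403 genes with r = 0.853 and rho = 0.771, a description across genes that share the same arrays. Replicate 2 had the wider spread, with an SD of 0.789 against 0.588, and 567 genes below −1 against 212. Of the called lower genes 122 of 145 lay lower on replicate 2, and of the called higher genes 154 of 208 lay higher there. The median over all genes was −0.11. Centring each array on its own median called 249 genes higher and 92 lower, and quantile normalization called 468 higher and 667 lower, against 208 and 145 with the deposited values. Of the 194 called genes named in the text, centring ended 18 calls, all of lower genes: ARO9, ATX1, ERG6, FAS1, ITR1, LEU9, MET17, PHM6, PRM10, PSD1, RPS26B, SAM3, THI7, TIF11, VHT1, YAT1, YJL107C and ZRT2. Fitting the celastrol arrays alone, which is also what remains when either heat shock array is left out, called 1522 genes, whereas leaving out either celastrol array called 0, with 926 genes at an unadjusted p under 0.05 in limma without replicate 1 and 411 without replicate 2.

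**Figure D1:**
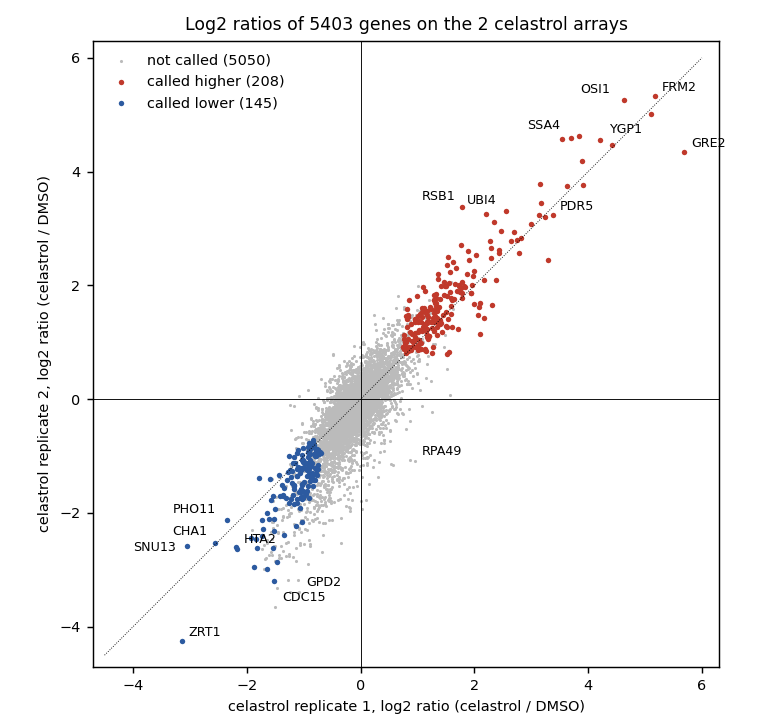
Log2 ratios of celastrol over DMSO for the 5403 genes tested, replicate 1 on the horizontal and replicate 2 on the vertical axis. Red points are the 208 genes called higher, blue points the 145 called lower and grey points the rest; the dotted line marks equal values, and the lower genes bend away from it towards replicate 2.

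Lower values carry a further limit. A set of 357 genes, 6.61% of those tested, had a negative ratio on each of the 4 arrays, celastrol and heat alike, and averaged −1 or less over them. This set held 74 of the 145 lower genes, or 51.0%, and 0 of the 208 higher ones. The definition of the set fixes that 0 and favours lower genes, so the contrast tests nothing. The 51.0% only gives the share of lower calls under this limit. The probes of such genes numbered 473 of 6415, or 7.37%, or, in consecutive blocks of 200 probe identifiers, 22.0% of the first, 26.7% of the last, which holds only 15 probes, and 3 to 15% of the others. With no dye swap, a fall under both treatments and a ratio set by the dye cannot be told apart for these genes. Below, membership of the set is given as "low on all 4 arrays". Of the lowest genes listed above, all but ZRT1 and CHA1 belong to the set, ETR1 and YAT1 included. Copies of near-identical sequence, such as SSA1 and SSA2, HXT6 and HXT7, PHO11 and PHO12, the AAD genes, the histone pairs and the ribosomal protein pairs, can bind each other's RNA, so their values are uncertain to that extent.

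**Figure D2:**
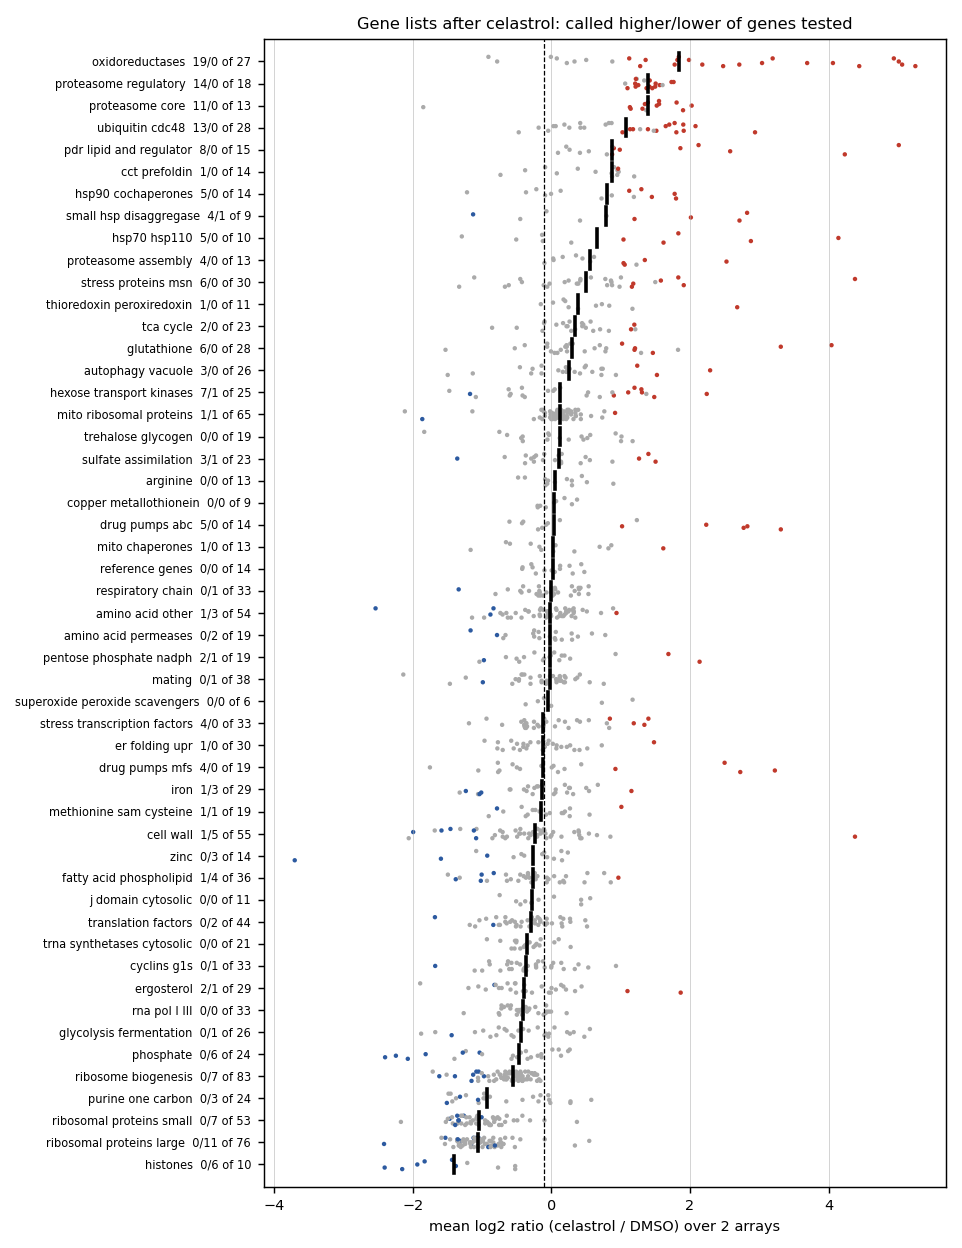
Mean log2 ratio of celastrol over DMSO (horizontal axis) of the tested members of 51 gene lists, sorted by median. Members were chosen with earlier results of these data known. Red points were called higher and blue points lower, black bars are list medians, the dashed line is the median of all 5403 genes at −0.11, and each label gives the genes called higher and lower of those tested.

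Reductases had the highest median of the lists. Of 27 tested oxidoreductases and related genes 19 rose and 0 fell, and their median of 1.84 stood against −0.11 over all genes. Members of this list, as of the others, were chosen with earlier results of these data known. Its count and median thus describe the list and are no independent test of reductases as a class. FRM2, which belongs to a family of nitroreductase-like proteins, had log2 ratios of 5.17 and 5.32, a mean of 5.25 ± 0.10 or 38.0-fold (adjusted p = 0.00286). GRE2, an NADPH-dependent reductase of methylglyoxal and other aldehydes, read 5.68 and 4.34, a mean of 5.01 ± 0.95 (adjusted p = 0.00658). OSI1, named for its induction by oxidants, read 4.62 and 5.25 (adjusted p = 0.00286). Both arrays were far above 0 for each of these, and the gap between arrays was wider for GRE2 than for FRM2 or OSI1. The dehydrogenase-like genes YNL134C and YML131W rose to means of 5.06 ± 0.07 and 4.44 ± 0.03, and YLR460C, a relative of YNL134C, to 1.82 ± 0.09.

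The old yellow enzymes are flavoproteins that reduce the activated double bonds of electrophiles. OYE3 read 3.54 and 4.58 and OYE2 2.64 and 2.78, so both rose, and OYE3 more on each array. The aryl-alcohol dehydrogenase-like family held 5 called members of 6 tested. AAD6 read 3.63 and 3.74, AAD15 3.14 and 3.24, AAD3 2.29 and 2.66, AAD4 1.90 and 2.45 and AAD14 1.96 and 2.01, and cross-hybridisation among these close copies was not tested. AAD10, at 0.86 and 0.90, was not called. Further called members were the keto-amide reductase YDL124W with a mean of 3.04 ± 0.07, the putative butanediol dehydrogenase BDH2 with 1.84 ± 0.25, the cinnamyl alcohol dehydrogenase ADH6 with 1.78 ± 0.00, the quinone reductase-like ZTA1 with 1.36 ± 0.34 and the aldehyde reductases YPR1 and ARI1 with 1.28 ± 0.14 and 1.12 ± 0.14.

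Many of these genes also differed from the heat shock response. In the contrast of celastrol minus heat shock, which called 0.537% of genes higher and 0.574% lower, FRM2, OSI1, YML131W, OYE3, YNL134C, GRE2, AAD6, AAD15, AAD3 and YLR460C were called higher. FRM2 read −0.88 and −0.13 and OYE3 −0.47 and 0.17 on the heat shock arrays. In all, 28 of the 208 higher genes were called higher in that contrast too. The contrast reuses the celastrol arrays that gave those calls, so overlap is partly built in and is no independent support for them. The same holds for every call against heat given below. An equal dye effect on all arrays cancels in the contrast, and whether it was equal was not tested.

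Of 11 thioredoxin and peroxiredoxin genes 1 rose, where 3.85% of all genes did. TRX2, a cytosolic thioredoxin and classical Yap1 target, read 2.79 and 2.57, a mean of 2.68 ± 0.16 or 6.40-fold (adjusted p = 0.0177), while its isoform TRX1 read 0.46 and 0.30. The thioredoxin reductase TRR1 read 0.46 and 0.99 and the peroxiredoxin AHP1 1.23 and 1.11, both above 0 and neither called. The peroxiredoxin TSA1 read 0.66 and −0.26 and sulfiredoxin SRX1 −0.34 and 0.04, so the arrays disagreed in sign for both.

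Of 28 tested glutathione genes 6 rose and 0 fell, with a median of 0.29. The glutathione transferases led, with ECM4 at 3.89 and 4.19 (adjusted p = 0.00286) and GTT2 at 3.17 and 3.45 (adjusted p = 0.00359), each called higher than after heat as well. GTT1, measured on the celastrol arrays but not tested, read 0.62 and 0.47. GSH1, the enzyme of the committed step of glutathione synthesis, rose to 1.46 ± 0.03, and GCG1, which breaks glutathione down, to 1.21 ± 0.24. Glyoxalases pass methylglyoxal through a glutathione adduct. GLO4, the mitochondrial glyoxalase II, rose to 1.20 ± 0.11, while GLO1, glyoxalase I, read 1.15 and 1.44 without a call. Glutathione reductase GLR1 read 1.59 and 2.06, high on both arrays, yet missed the threshold with an adjusted p of 0.0691 and was the 1 gene with a mean of 1.8 or more that was not called.

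Enzymes that remove superoxide and peroxide directly gave 0 calls among 6. The copper chaperone CCS1 read 0.99 and 1.35 and its client superoxide dismutase SOD1 a mean of 0.73 ± 0.38, the mitochondrial SOD2 0.00 and −0.39, the catalases CTT1 0.13 and −0.13 and CTA1 −0.43 and −0.32, and the cytochrome c peroxidase CCP1 −0.01 and −0.21. Catalase values thus stayed within 0.5 of 0 on both arrays. Of 19 tested members of the pentose phosphate path and other NADPH sources 2 rose and 1 fell, with a median of −0.03 and 7 below 0 on both arrays. ZWF1, the glucose-6-phosphate dehydrogenase that opens the oxidative branch, read 2.17 and 2.10 (adjusted p = 0.0216), and the acetaldehyde dehydrogenase ALD6, a cytosolic source of NADPH, read 1.59 and 1.78 (adjusted p = 0.0151). GND1, a later dehydrogenase of that branch, read 0.93 and 0.92 with an adjusted p of 0.0542, and RKI1 of the non-oxidative branch fell to −0.97 ± 0.07.

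**Figure D3:**
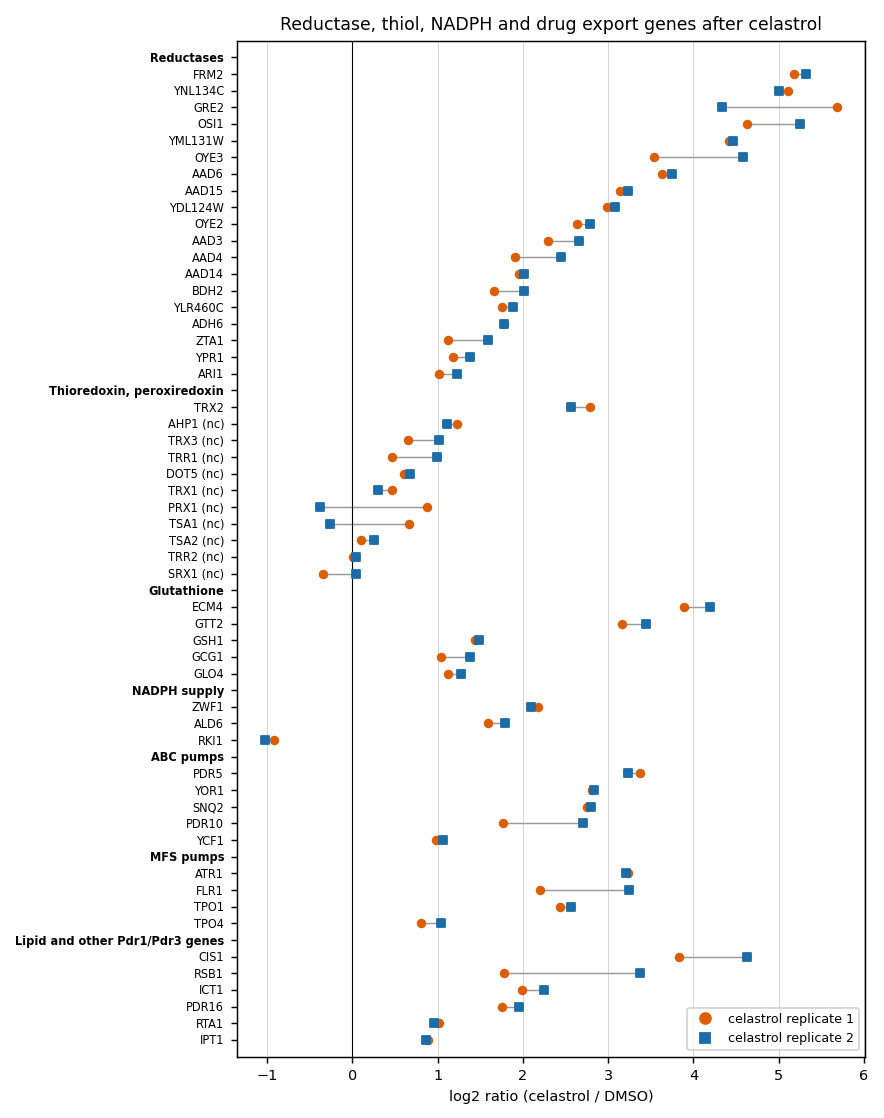
Log2 ratio of celastrol over DMSO (horizontal axis) of reductase, thiol, NADPH, drug export and lipid genes on celastrol replicate 1 (circles) and replicate 2 (squares), joined by a line. All tested thioredoxin and peroxiredoxin genes are shown and only called genes of the other groups; "nc" marks genes that were not called. FRM2 lies at 5.17 and 5.32, and TRX2 stands apart from its family.

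Of 14 ABC transporters 5 rose and 0 fell, with a median of 0.04. PDR5, the main broad-range drug pump, read 3.38 and 3.24, a mean of 3.31 ± 0.10 or 9.90-fold (adjusted p = 0.00513). SNQ2 read 2.75 and 2.79 and YOR1 2.81 and 2.84, nearly equal on both arrays. PDR10 read 1.76 and 2.70 and was called, and PDR15, its relative, read 0.65 and 1.81 and was not. YCF1, the vacuolar pump for glutathione conjugates, rose to 1.02 ± 0.06 and is also counted among the glutathione genes. PDR12, the weak-acid pump, and YBT1, a vacuolar bile acid pump, read −0.31 and −0.90 and −0.41 and −0.44. The 2 probes of PDR12 parted by an SD of 0.63 on replicate 1 and 1.67 on replicate 2.

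Among 19 transporters of the major facilitator class 4 rose, ATR1 at 3.24 and 3.21, FLR1 at 2.20 and 3.25, the polyamine exporter TPO1 at 2.43 and 2.56 and TPO4 at 0.80 and 1.04. ATR1 and FLR1 are known Yap1 targets that export aminotriazole and fluconazole. PDR5, SNQ2, YOR1 and TPO1 were also called higher than after heat.

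In a list of 15 Pdr-linked lipid, regulator and further genes 8 rose, 0 fell and all 15 lay above 0 on both arrays, with a median of 0.88. The 8 include GRE2, also counted among the reductases, and HXT9, also counted among the hexose transporters. CIS1 read 3.83 and 4.63 (adjusted p = 0.00359), and RSB1, a membrane protein that protects against sphingoid bases, read 1.78 and 3.38. The lysophosphatidic acid acyltransferase ICT1 rose to 2.12 ± 0.18, the lipid transfer protein PDR16 to 1.86 ± 0.14, RTA1 to 0.99 ± 0.04 and the sphingolipid enzyme IPT1 to 0.88 ± 0.01. The genes of the regulators gave smaller values without a call, PDR1 0.86 and 0.74 and PDR3 0.35 and 0.47.

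Of 10 tested Hsp70 and Hsp110 genes 5 rose and 0 fell. SSA4, the strictly inducible Hsp70, read 3.69 and 4.59, a mean of 4.14 ± 0.63 or 17.6-fold (adjusted p = 0.00915). SSA2 read 3.30 and 2.45 and SSA1 2.09 and 1.14, both higher on replicate 1, and SSA3 read 0.81 and 1.27. The Hsp110 exchange factor SSE1 rose to 1.83 ± 0.22, whereas its paralog SSE2 read −0.15 and 0.73, with opposite signs. The ribosome-bound SSB2 read −0.88 and −1.70 without a call and is low on all 4 arrays. SSA3 was called lower than after heat, with a heat shock mean of 4.62.

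Of 14 Hsp90 genes and partners 5 rose. The inducible HSP82 read 1.69 and 1.90 and the constitutive HSC82 1.34 and 1.55, so both isoforms rose. The cyclophilin CPR6 rose to 1.78 ± 0.59, the ATPase activator AHA1 to 1.30 ± 0.63 and the p23 homologue SBA1 to 1.12 ± 0.10. STI1 read 0.50 and 1.25 and CDC37 0.90 and 1.48, and CPR7, the paralog of CPR6, read −0.32 and −0.42, none of the 3 called.

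Among small heat shock proteins, disaggregases and related genes, 4 of 9 rose and 1 fell. HSP26 read 2.47 and 2.95, HSP31 2.70 and 2.94, the disaggregase HSP104 1.53 and 2.49 and HSP42 0.82 and 1.58. CUR1 fell on both arrays, to −1.13 ± 0.18, while BTN2, its paralog in sorting misfolded proteins, read 0.26 and 1.33 and was not called. All 8 subunits of the CCT chaperonin lay above 0 on both arrays, from CCT3 at 0.68 and 1.05 to TCP1 at 1.46 and 0.92, and 1 of them, CCT6, was called. Prefoldin, which hands actin and tubulin to CCT, ranged from GIM4 at 0.58 and 0.69 to PAC10 at −0.48 and −0.99, 0 of its 6 subunits called.

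J-domain partners of Hsp70 gave 0 calls among 11, with YDJ1 at 0.24 and 0.61 and SIS1 at −0.24 and −0.33. Of 30 tested genes of folding in the endoplasmic reticulum 1 rose, where 3.85% of all genes did. It was the disulfide isomerase PDI1, at 1.72 and 1.24. KAR2, the Hsp70 of that compartment and the usual marker of its stress response, read −0.18 and −0.73, below 0 on both arrays. The median of the reticulum list, −0.12, was close to that of all genes.

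**Figure D4:**
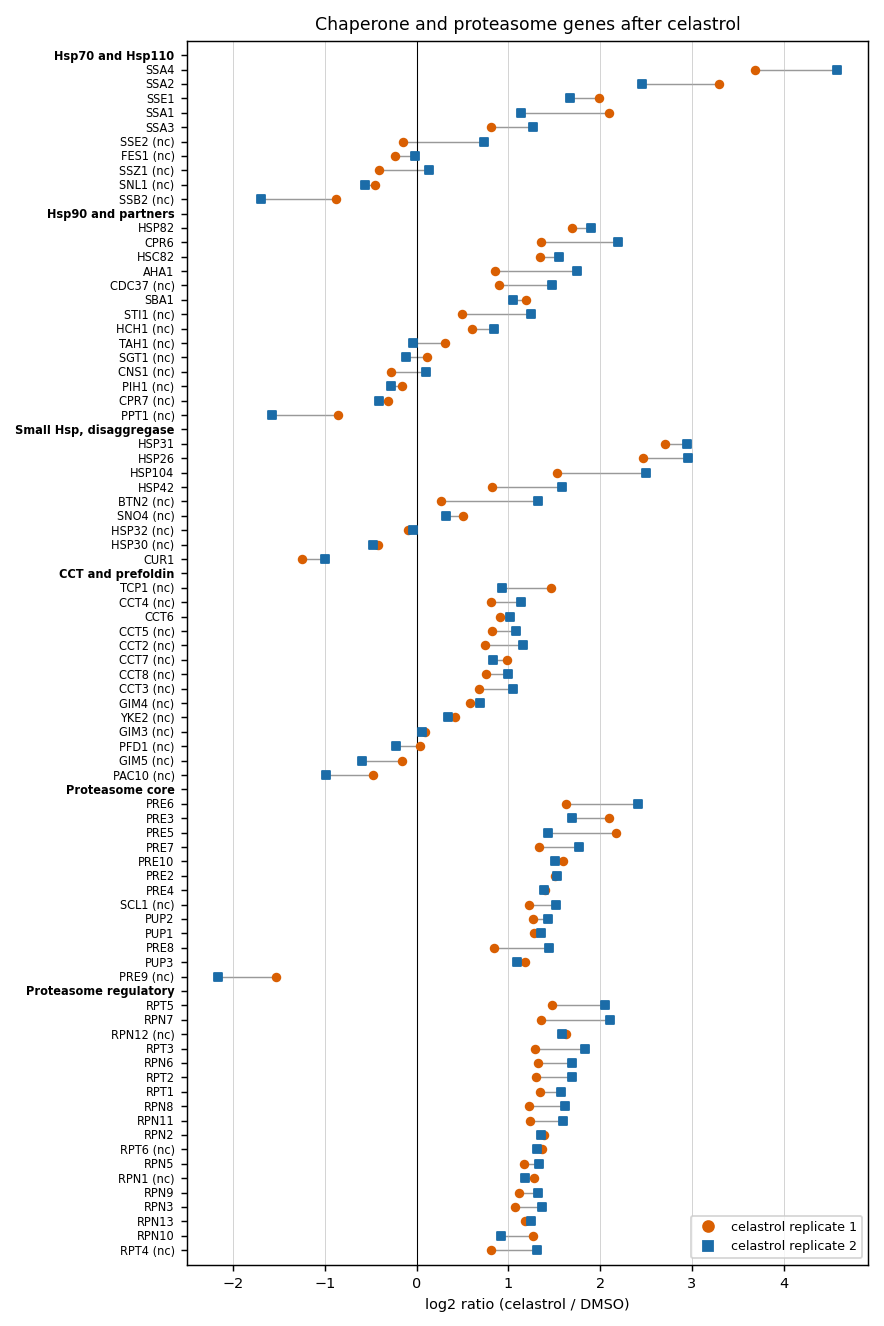
Log2 ratio of celastrol over DMSO (horizontal axis) of all tested chaperone and proteasome genes of 6 lists on celastrol replicate 1 (circles) and replicate 2 (squares). Genes marked "nc" were not called; 30 of 31 proteasome subunits lie above 0 on both arrays, and PRE9 alone lies below.

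Proteasome subunits rose almost as 1 block. Of 13 tested subunits of the core particle 11 rose, and of 18 tested subunits of the regulatory particle 14 rose, with medians of 1.39 in both. PRE6 read 1.63 and 2.41 (adjusted p = 0.0443), PRE3 2.10 and 1.70 and PRE2, which carries the chymotrypsin-like site, 1.51 and 1.53. In the regulatory particle the ATPase RPT5 read 1.47 and 2.05, the lid subunit RPN7 1.35 and 2.11 and the deubiquitinase RPN11 1.24 and 1.59. These values lie in a narrow band, and the regulatory subunits ranged only from 1.06 to 1.76 in their means.

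The subunits without a call mostly lay in the same band. SCL1 read 1.22 and 1.52, RPN12 1.62 and 1.58, RPT6 1.37 and 1.31, RPN1 1.28 and 1.18 and RPT4 0.81 and 1.32, all above 0.8 on both arrays. PRE9 was the exception at −1.53 and −2.16, not called and low on all 4 arrays, and PRE1, measured on the celastrol arrays but not tested, read −0.48 and −2.43. Whether these 2 probes report their genes was not tested. RPN4, the gene of the proteasome's own activator, also lay outside the test and read 0.00 and 0.38.

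Accessory factors rose too, in 4 of 13 tested genes. ECM29, which holds core and regulatory particle together, read 2.27 and 2.78 (adjusted p = 0.00798), the alternative activator BLM10 1.34 and 1.35, NAS6 0.95 and 1.17 and PBA1 1.26 and 0.82. The maturation factor UMP1 read 1.27 and 1.18, in the same band without a call.

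Upstream of the proteasome, 13 of 28 ubiquitin and Cdc48 genes rose and 0 fell, with a median of 1.08. The polyubiquitin gene UBI4 read 2.56 and 3.31, a mean of 2.94 ± 0.53 or 7.65-fold (adjusted p = 0.0371), and the activating enzyme UBA1 read 1.82 and 1.99. The segregase CDC48, which pulls ubiquitylated proteins from membranes and complexes, read 2.07 and 1.49, and its cofactors UFD1 and NPL4 rose too, at 1.56 and 2.04 and 1.12 and 1.90. OTU1, a deubiquitinase bound to Cdc48, rose to 1.70 ± 0.41. The zinc finger proteins CUZ1 and TMC1, known to be raised by trivalent arsenic, rose to 1.90 ± 0.04 and 2.08 ± 0.13.

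Autophagy and vacuolar genes rose in 3 of 26. The vacuolar aminopeptidase APE1 read 2.03 and 2.54, the initiating kinase ATG1 1.29 and 1.75 and the membrane-conjugated ATG8 1.01 and 1.46. Their list median of 0.25 lay above that of all genes, and PEP4, the vacuolar protease that was not tested, read 0.39 and 1.41.

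Of the 13 tested genes of the mitochondrial chaperone list, whose median was 0.03, 1 was called, the matrix protease PIM1 at 1.59 and 1.64, with HSP60 at 0.42 and 1.23 and HSP78 at 0.24 and 1.49. Outside that list, 6 further mitochondrial genes are named because they were called, so they say nothing of mitochondrial quality control as a group. The membrane-bound AAA proteases YME1, AFG3 and YTA12 rose to 1.15 ± 0.07, 0.93 ± 0.00 and 0.84 ± 0.13. The prohibitins PHB1 and PHB2, whose ring complex binds the protease of AFG3 and YTA12, rose to 1.26 ± 0.26 and 1.44 ± 0.19, and MIA40, the oxidase-linked import receptor of the intermembrane space, to 1.27 ± 0.32.

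Of 33 tested stress transcription factors 4 rose, YAP1 at 1.01 and 1.36, its relative YAP5 at 0.83 and 0.85, the repressor XBP1 at 1.08 and 1.60 and MET28 at 1.28 and 1.51. The heat shock factor gene HSF1 read 0.54 and 1.12, MSN2 −0.93 and 0.16 and MSN4 −0.17 and −0.23, none called. Of 30 general stress proteins 6 rose. YGP1, a secreted glycoprotein of starvation and stress, read 4.20 and 4.55, a mean of 4.38 ± 0.25 (adjusted p = 0.0242), and −0.09 and 2.40 after heat. DDR48 rose to 1.91 ± 0.05 and TMA10 to 1.58 ± 0.27, and the genes of the gamma-aminobutyrate shunt UGA1 and UGA2 to 1.83 ± 0.06 and 1.16 ± 0.29. HSP12, often used as a marker of this programme, read −1.23 and −0.11 and was called lower than after heat, and trehalose and glycogen gave 0 calls among 19, with TPS1 at 0.65 and 1.36 and PGM2 at 0.76 and 1.58.

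Sugar uptake genes rose in a subset. Of 25 tested hexose transporters and kinases 7 rose and 1 fell. HXT3, a low-affinity transporter of glucose-grown cells, read 2.39 and 2.09, HXT4 1.42 and 1.19, and the near-identical high-affinity HXT6 and HXT7 1.24 and 1.35 and 1.13 and 1.27. HXT3, HXT4, HXT6 and HXT7 were also called higher than after heat. Hexokinase HXK1 rose to 1.48 ± 0.22 and the glucokinase-like EMI2 to 1.11 ± 0.31, whereas HXT10 fell at −1.11 and −1.23. HXT1 read 0.83 and 0.56 and HXT2 −0.61 and −0.59, neither called, and HXT2 is low on all 4 arrays.

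Below the first step, glycolysis gave 0 higher and 1 lower of 26, against 3.85% and 2.68% of all genes, with a median of −0.44. PDC1, the main pyruvate decarboxylase, fell at −1.38 and −1.50, and ADH1 read −0.71 and −1.26 and FBA1 −0.89 and −1.32, both below 0 without a call. In the citric acid cycle list 2 of 23 rose, against 3.85% of all genes. They were pyruvate carboxylase PYC1 at 1.56 and 0.83 and lipoamide dehydrogenase LPD1 at 1.17 and 1.12. Of 33 respiratory chain genes 1 fell, near the 2.68% of all genes, ATP20 at −1.17 and −1.50, low on all 4 arrays. MPC3, a mitochondrial pyruvate carrier subunit named after its value was seen, read 1.74 and 2.01 and was also called higher than after heat.

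Of 23 tested sulfate assimilation genes 3 rose and 1 fell. ATP sulfurylase MET3 read 1.17 and 1.36, the next enzyme MET14 1.38 and 1.62 and the cofactor of the pathway's activator MET28 1.28 and 1.51. MET17, which joins sulfide to the carbon chain, fell at −1.29 and −1.42 and is low on all 4 arrays. CYS3, which makes cysteine, the precursor of glutathione, rose to 1.01 ± 0.17, and the S-adenosylmethionine permease SAM3 fell to −0.78 ± 0.08.

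The deepest fall of all called genes was in a gene of zinc uptake. ZRT1, the high-affinity zinc transporter, read −3.15 and −4.25, a mean of −3.70 ± 0.78, or 0.0769 times its DMSO level (adjusted p = 0.00883). On the heat shock arrays it read 0.71 and 0.58, and it was called lower in the contrast with heat. The low-affinity ZRT2 read −1.03 and −2.16 and IZH1, a membrane protein of zinc homeostasis, −0.89 and −0.96, both called, though centring ended the call of ZRT2. ZAP1, the activator of these genes, read −0.26 and −0.52, and the vacuolar zinc importer ZRC1 −0.13 and −0.13. Of 14 zinc genes 3 fell and 0 rose.

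Of 29 iron genes 1 rose and 3 fell, where 3.85% and 2.68% of all genes did. Heme oxygenase HMX1 rose at 1.51 and 0.79, and the copper chaperone ATX1, the biotin transporter VHT1 and the low-affinity iron transporter FET4 fell, to −1.01 ± 0.03, −1.04 ± 0.36 and −1.23 ± 0.18. FET3 and FTR1, the high-affinity iron oxidase and permease, read −0.67 and −1.44 and −0.88 and −1.77, below 0 on both arrays without a call. Centring ended the calls of ATX1 and VHT1. Copper genes and metallothioneins gave 0 calls among 9, with CUP1-1 at −0.15 and −0.02.

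Phosphate genes fell in 6 of 24, with a median of −0.47 and 0 higher. The acid phosphatases PHO3, PHO11, PHO5 and PHO12 read −2.20 and −2.60, −2.35 and −2.13, −1.73 and −2.41 and −1.52 and −2.10. All 4 are low on all 4 arrays, though PHO11 read only −0.08 and −0.11 after heat and was called lower than after heat. The high-affinity transporter PHO84 fell at −1.12 and −0.95 and PHM6 at −1.28 and −1.28, and neither belongs to that set. SPL2 and PHO89, further genes of phosphate starvation, read −1.15 and −1.65 and −0.63 and −1.84, and VTC4, not tested, read −1.12 and −1.30.

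**Figure D5:**
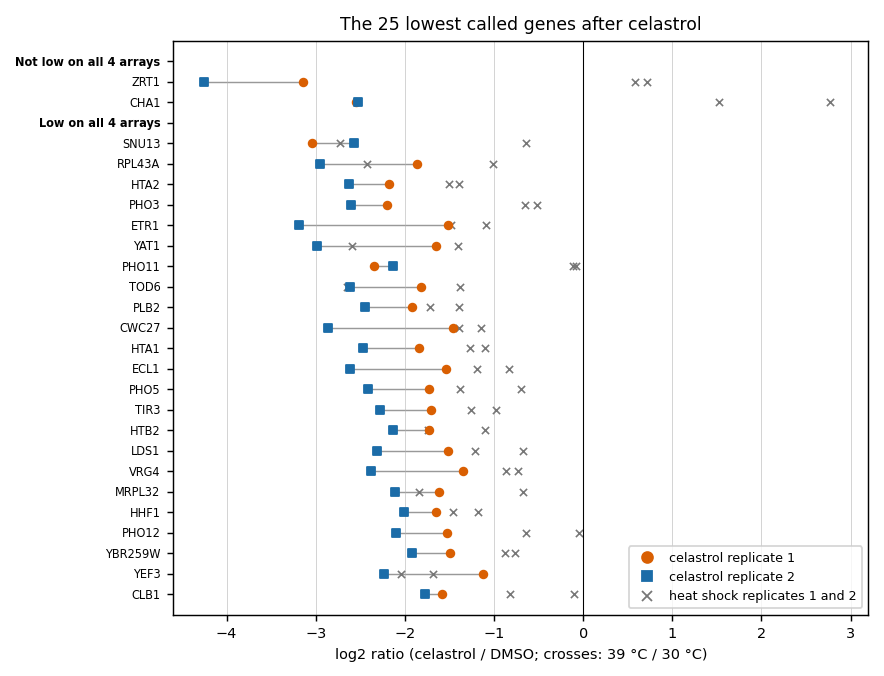
Log2 ratios (horizontal axis) of the 25 lowest called genes on celastrol replicate 1 (circles), celastrol replicate 2 (squares) and the 2 heat shock arrays (crosses), grouped by whether the gene is low on all 4 arrays. ZRT1 and CHA1 lie below −2.5 after celastrol and above 0 after heat, and the other 23 genes lie below 0 on every array.

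Amino acid genes gave few calls. CHA1, which degrades serine and threonine, read −2.55 and −2.52, a mean of −2.54 ± 0.02 (adjusted p = 0.0224), against 2.77 and 1.52 after heat. Its standard error in the fit was 0.314, since the fit takes in the gap between the heat shock arrays. The aromatic aminotransferase ARO9 read −0.91 and −0.76 against 1.95 and 2.05 after heat. For both, all celastrol values were below 0 and all heat shock values above it, and both were called lower in the contrast. LEU9 fell to −0.88 ± 0.06 and SER3, the first enzyme of serine synthesis, rose to 0.94 ± 0.03. Of 54 such genes 1 rose and 3 fell, where 3.85% of all genes rose and 2.68% fell. Of 19 permeases the amino acid carrier TAT1 and SAM3 fell, and of 13 arginine genes 0 were called.

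Nucleotide synthesis genes lay low. Of 24 purine, pyrimidine and one-carbon genes 3 fell, and the median was −0.92 against −0.11 over all genes, or −0.34 without members low on all 4 arrays. IMD3, of guanine nucleotide synthesis, read −1.01 and −1.10, GUA1 of the same branch −1.02 and −1.62 and URA2, the first enzyme of pyrimidine synthesis, −1.17 and −1.84, all 3 low on all 4 arrays. The call of URA2 rests on 2 probes that parted by an SD of 0.689 on replicate 1 and 1.14 on replicate 2. Among genes named after their values were seen, the uridine permease FUI1 fell to −1.49 ± 0.14, the uracil salvage enzyme FUR1 to −1.40 ± 0.51 and the thiamine transporter THI7 to −1.24 ± 0.04. FUR1 is low on all 4 arrays.

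Genes of the translation machinery lay mostly below 0, and few of them passed the test. All 83 tested ribosome biogenesis genes lay below 0 on both arrays, 77 lay below their array's own median on both, and 7 fell. Their median was −0.55, or −0.43 after centring. DBP2, an RNA helicase, read −1.54 and −1.70, the large ATPase REA1 −1.04 and −1.74, and KRR1, of small subunit assembly, −0.95 and −1.36. DBP2 and REA1 are low on all 4 arrays. Subunits of RNA polymerases I and III gave 0 calls among 33, with 0 above 0 on both arrays. Cytosolic ribosomal proteins fell in 11 of 76 for the large and 7 of 53 for the small subunit. The 2 arrays differed here, with medians of −0.66 and −1.51 over all 129, and 99 of the 129 are low on all 4 arrays. RPL43A read −1.87 and −2.96, RPL20A −1.36 and −1.70 and RPS26B −1.08 and −1.63, each low on all 4 arrays. The elongation factor YEF3 fell at −1.13 and −2.23 and is low on all 4 arrays, and the initiation factor TIF11 fell at −0.78 and −0.90. These were 2 of 44 translation factors, where 2.68% of all genes fell, and 0 of 21 cytosolic tRNA synthetases were called.

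Mitochondrial ribosomal proteins had a median of 0.12 over 65 genes, with 1 higher, MRP8 at 0.77 and 1.07, and 1 lower, MRPL32 at −1.61 and −2.11. Over all genes 3.85% were higher and 2.68% lower. MRPL32 is low on all 4 arrays. TOD6, a repressor of ribosome biogenesis genes, itself read −1.82 and −2.62, and SNU13, shared by the spliceosome and the particle that processes ribosomal RNA, read −3.04 and −2.57, both low on all 4 arrays.

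Histones fell in 6 of 10 tested genes, with a median of −1.41. HTA2 read −2.18 and −2.63, HTA1 −1.84 and −2.47, HTB2 −1.74 and −2.13, HTB1 −1.17 and −1.59, HHF1 −1.65 and −2.01 and HHF2 −1.18 and −1.68. HHT1 read −0.62 and −1.81 without a call and HHT2, not tested, −1.29 and −1.52. These 7 tested core histone genes are low on all 4 arrays, so 0 histone calls lie outside that set. The variants HTZ1 and CSE4, at −0.60 and −0.45 and −0.49 and −0.56, and the linker histone HHO1, at −0.52 and −1.02, lay nearer to 0 and were not called. Core histone messages are made in S phase, and whether the cell cycle shifted was not tested. Of 33 genes of the G1 to S transition and the cyclins 1 fell, where 2.68% of all genes did. It was CLB1, at −1.58 and −1.77, low on all 4 arrays. The median of this list was −0.36, and 21 of the 33 lay below 0 on both arrays. CLN2 read −0.48 and −0.67, RNR1 −0.26 and −0.55 and CLB5, measured but not tested, −0.67 and −1.75.

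Cell wall genes fell in 5 of 55 and rose in 1, YGP1. The glucan synthase subunit FKS1 read −0.93 and −1.24, the glucanase EXG1 −1.03 and −1.20, the wall protein CWP1 −1.35 and −1.56, and GAS3 and TIR3 −1.79 and −1.38 and −1.71 and −2.28, the last 2 low on all 4 arrays. CWP1 was above 0 after heat, at 1.16 and 0.55, and was called lower in the contrast. Of 38 mating genes 1 fell, where 2.68% of all genes did. It was PRM10, at −0.75 and −1.23, whose gene overlaps YJL107C, also called lower.

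Of 29 ergosterol genes 2 rose and 1 fell, and of 36 fatty acid and phospholipid genes 1 rose and 4 fell, where 3.85% of all genes rose and 2.68% fell. The sterol acyltransferase ARE2 rose at 1.73 and 1.99, and its isoenzyme ARE1 read −1.46 and −2.33 without a call and low on all 4 arrays. Squalene synthase ERG9 rose to 1.10 ± 0.12 and ERG6 fell to −0.82 ± 0.11. ERG11, the target of azoles, read −0.94 and −1.45. The fatty acid synthase subunits FAS1 and FAS2 fell at −0.86 and −1.17 and −1.02 and −1.74, the inositol transporter ITR1 at −0.79 and −1.23 and the decarboxylase PSD1 at −0.82 and −0.85, all 4 low on all 4 arrays, while PXA1, which imports fatty acids into peroxisomes, rose to 0.97 ± 0.12. Centring ended the calls of FAS1, ITR1, PSD1 and ERG6.

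Genes without a place in the lists also stood among the highest. YGR035C, of unknown function, read 3.92 and 3.77 (adjusted p = 0.00465), YMR090W, of unknown function, 3.15 and 3.78, and YHI9 2.35 and 3.12. The cyclophilin CPR1, the tail-anchored protein factors SGT2 and GET3, the methionine sulfoxide reductase MXR1, the DNA glycosylase MAG1, the sorbitol dehydrogenases SOR1 and SOR2 and the ER-phagy receptor ATG40, all named after their values were seen, rose to 1.98 ± 0.47, 1.92 ± 0.19, 1.33 ± 0.04, 1.31 ± 0.18, 2.24 ± 0.50, 1.90 ± 0.10, 1.70 ± 0.09 and 2.53 ± 0.13. Among the 25 lowest without a list were the phospholipase PLB2 at −1.92 and −2.45, the splicing factor CWC27 at −1.46 and −2.86, the Golgi nucleotide sugar transporter VRG4 at −1.34 and −2.38, ECL1 at −1.54 and −2.62 and LDS1 at −1.52 and −2.32. All 5 of those lower genes are low on all 4 arrays.

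In the lists with 0 calls, limma gave an unadjusted p under 0.05 for 2 of 6 superoxide and peroxide scavengers, 3 of 11 J-domain genes, 8 of 19 trehalose and glycogen genes, 0 of 9 copper genes, 1 of 13 arginine genes, 10 of 33 polymerase genes, 6 of 21 tRNA synthetases and 1 of 14 reference genes. Of these common reference genes 0 were called, with a median of 0.03, ACT1 at 0.40 and 0.21 and TAF10 at −0.02 and 0.11. TDH3, at 1.07 and −0.12, and TUB1, at 0.35 and −0.93, show how far the arrays could part on such genes. The largest gaps between replicates belonged to GPD2, at −1.08 and −3.38, RPS22B, at −0.34 and −2.52, and CDC15, at −1.50 and −3.65, all 3 low on all 4 arrays, and in the 10 genes with the widest gaps replicate 2 was always the lower. RPA49 and RPL13A had opposite signs beyond 0.7, at 0.95 and −1.08 and 0.87 and −1.06.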

How the data were processed

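Total RNA of yeast was hybridised to 2-colour arrays, 2 for celastrol and 2 for heat shock. The deposited values were taken as log2 ratios of treated over control. Per the labels of the series, the authors averaged duplicate spots and set them relative to the chip's median; the sources used here do not give the array software, the background correction or any spot filter. Of 6415 probes, 5619 have 1 gene, 76 several and 720 none in the platform annotation; all 5619 matched RefSeq R64 gene names. Probes with 1 gene were averaged per gene, exact zeros taken as missing, and no scaling was added. Precision is limited by the number of arrays.

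In R 4.3.3, limma 3.58.1 fitted 1 mean per treatment over all 4 arrays (2 residual and 3.12 prior degrees of freedom, prior SD 0.268) and tested against 0, with Benjamini-Hochberg adjustment over 5403 genes. The step was tested on simulated data. The 51 lists hold 1380 genes, 1314 of them tested, grouped by role. Members and lists were chosen with earlier results of these data known. Named genes are the 25 highest and 25 lowest called genes, up to 8 called members of each list with their partners, isoforms and subunits, the 10 genes whose arrays differ most and untested members of lists; other genes, such as uncalled markers of a list, were named after their values were seen. No sequences were used. Other settings varied scaling, zeros, weights, filters, replicates and the pairing of replicate numbers.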

Additional observations from a re-analysis of the deposited data

Results flagged for a closer look

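Probes to which the platform's annotation gives no gene stand outside the report's comparison, and some of them carried signal after celastrol. Of 718 such probes measured on both celastrol arrays, 10 lay above 1 on both, or 1.39%, against 3.35% of the genes tested. The highest had a mean of 5.46, above FRM2, the highest gene with a name. Below −1 on both arrays lay 71 of them, or 9.89%, against 3.57% of the genes tested, and their median was −0.36. Of the 76 probes with several annotated genes 0 lay above 1 on both arrays and 5 below −1. What these probes detect was not tested.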

How the results depend on the processing

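Alternatives kept the direction of all 194 called genes named in the text, though few could have changed it, whereas the number of calls moved widely. Most alternatives change the test and leave a gene's mean as it was. All 208 higher and 145 lower genes had the same sign on both celastrol arrays, so leaving out either could not reverse them. Centring and quantile normalization did change the means. Against 353 genes, 208 higher and 145 lower, centring each array on its median called 92 lower, and quantile normalization called 1135, 468 higher and 667 lower. Array weights called 1243, 461 higher and 782 lower, and the celastrol arrays fitted alone 1522, 516 higher and 1006 lower, both with the same 353 among them. A test against a 1.5-fold change called 60, 51 higher and 9 lower. Leaving out 1 array gave 0 to 1522 calls, 0 to 516 higher and 0 to 1006 lower, the 0 without either celastrol array, where the residual spread comes from the heat shock arrays alone. Keeping exact zeros, allowing missing heat shock values, robust estimation and genes with 1 probe gave 316, 348, 349 and 330 calls. With the replicate number as a replicate block 65 genes were called, 57 higher and 8 lower, and 62 of the 194 named calls held. The deviations of same-numbered arrays correlated at −0.31, and the labels do not say that a number marks a shared batch, so the arrays share only a number. Crossing the numbers, an alternative chosen after seeing the data, called 798 genes, 301 higher and 497 lower. Leaving out the genes low on all 4 arrays, also chosen after seeing the data, called 384, 252 higher and 132 lower. With 2 arrays a gene below a change of 0.78 was never called, and signal over background cannot be read from ratios.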

Other observations

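Genes that lie next to each other were also compared, with neighbours taken from the RefSeq table of the R64 assembly and 4861 adjacent protein-coding pairs with both genes tested. Both genes rose in 9 pairs and both fell in 9. Of the 9 higher pairs 6 are transcribed away from a shared intergenic region, as are 25.4% of all 4861 pairs. They are the transcription factor genes MET28 and YAP5, the prohibitin gene PHB2 and the proteasome chaperone NAS6, the isomaltase IMA4 and the hexose transporter HXT9, the SNARE gene YKT6 and MIA40, the protease YTA12 and YMR090W, and the ER-phagy receptor ATG40 and the drug pump PDR5. The sizes within such pairs differed widely in some. ATG40 and PDR5 read 2.53 ± 0.13 and 3.31 ± 0.10, whereas YTA12 and YMR090W read 0.84 ± 0.13 and 3.47 ± 0.44. Of the 9 lower pairs 2 are divergent, the histone pairs HTA2 with HTB2 and HTB1 with HTA1, all 4 low on all 4 arrays. The pairs were counted after their calls were known. No test was made of their number against what calls of 3.85% of genes higher and 2.68% lower give without any link between neighbours. The counts are thus no result about neighbours.

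Where a gene had more than 1 probe, the probes could be compared. Over 137 such genes the median SD between probes was 0.154 on replicate 1 and 0.158 on replicate 2. The widest disagreement lay in SWH1, an oxysterol-binding protein gene, with an SD of 1.16 and 1.95 between its 2 probes, and in SSN2, a Mediator subunit gene, with 0.800 and 2.07. SWH1 was called lower, at −1.25 and −1.82, and that call rests on probes that part by this much. SWH1 is also low on all 4 arrays. FRM2, the highest gene, had an SD of 0.586 and 0.261 between its 2 probes, small beside its mean of 5.25 ± 0.10.

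Of the 49 genes with a mean of at least 1.8 in size that were not called, 48 were low and all 48 belong to the genes low on all 4 arrays. Replicate 2 lay below replicate 1 in each of the 10 genes with the widest gap, among them PLP2 at −1.24 and −3.38, MST28 at −1.10 and −3.19 and NUP42 at −0.93 and −2.90. What sets the gap was not tested.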
